A study of Mus musculus with 10 samples.

Results

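The 34 genes described here encode the folding and quality-control machinery of the cell, and they were listed by name and compartment. Of these, 17 act in the endoplasmic reticulum (ER), as chaperones, disulphide isomerases, factors of the unfolded protein response or parts of ER-associated degradation. The cytosolic heat shock system is represented by 14 genes and the mitochondrial one by 3. All 34 were found by symbol among the 15341 genes of the count table, and all 34 were among the 12992 genes with enough reads to be tested.

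Proteins that enter the secretory pathway fold in the ER with the help of chaperones, and when folding lags, the sensors IRE1, PERK and ATF6 raise the transcription of chaperones and degradation factors. In the cytosol the factor HSF1 does the same for heat shock proteins, which hold, refold or hand over damaged proteins. Heart muscle is known for its high content of small heat shock proteins, which bind sarcomere proteins under mechanical load. Mitochondria import unfolded proteins and fold them with their own HSP60, HSP10 and HSP70 forms.

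Hearts of 5 male S1Pless mice and of 5 male littermate controls were profiled by RNA sequencing. S1Pless mice had the genotype Sphk1f/-:Sphk2f/-:Mx1Cre+ and controls Sphk1f/-:Sphk2f/-:Mx1Cre-, so both groups carried 1 floxed and 1 null allele of each sphingosine kinase gene, and only S1Pless mice carried the recombinase. Mx1-Cre is driven by an interferon-inducible promoter and acts in blood-forming cells and in some others, so a group difference also compares animals with and without Cre. The comparison asks what the loss of blood-borne sphingosine 1-phosphate changes in the heart. No source used here states the age of the animals or how Cre was induced.

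Libraries held 16354071 to 20832566 counts in S1Pless hearts and 17204491 to 20202283 in controls. Levels are given as CPM, read counts brought to a common library size with TMM factors, which make the bulk of genes comparable between libraries. The TMM factors averaged 1.05 ± 0.0328 in S1Pless hearts and 0.955 ± 0.0478 in controls (SD, n = 5 each), and this was 1 of 3 library measures compared (two-sided exact permutation test, p = 0.0159, or 0.0476 after adjustment). Heart muscle markers were abundant in every library, with a summed level of 65758 to 76371 CPM over 12 genes in S1Pless hearts and 80968 to 86962 CPM in controls. The targeted genes were not called: Sphk1 had a log2 fold change of -0.74 ± 0.28 (SE) and Sphk2 of -0.27 ± 0.11, with edgeR adjusted p-values of 0.168 and 0.180.

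Of the 34 genes only Edem1 passed the test, and it was higher in S1Pless hearts. The other 33 passed in neither direction at an adjusted p under 0.05, from the quasi-likelihood test of edgeR adjusted by Benjamini-Hochberg over all genes tested. Over all genes tested, 3.4% were called higher and 0.316% lower, so that 1 of 34 higher and 0 of 34 lower is close to the background. At an unadjusted p below 0.05 there was 1 higher member and 4 lower ones, against a background of 13% higher and 6.82% lower. With a block for neighbouring title numbers, an alternative chosen after seeing the data, 11 members were lower at that p, 7 of them ER genes, against 5.83% of all genes, and without control replicate 2 there were 2, against 5.62%. In both of these fits 0 of the 34 passed after adjustment. In the block fit, control replicates 3 and 4 shared a block with no S1Pless heart, so they did not bear on the fitted group difference. DESeq2 called 1 member higher, again Edem1, and 1 lower, Dnajb9, with a background of 5.45% and 1.92%. Limma-voom called 1 higher and 0 lower, with a background of 3.98% and 0.439%.

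Most members nevertheless had a negative log2 fold change, 32 of 34, while 52.6% of all genes tested did. The median over the members was -0.22, against -0.01 over all genes tested. Without control replicate 2 the median was -0.08 and 25 of 34 were negative, with 50.7% of all genes. Without S1Pless replicate 3 it was -0.27 with 30 negative, against 51.5% of all genes, and without both hearts -0.12 with 28 negative, against 51.2%. With library totals alone as the scale, which moves the median of all genes by over 0.1 to 0.12, the members' median was -0.09 and 24 were negative, against 25.1% of all genes. The excess of negative values was therefore present under that scale too, but its size moved with the scale and with a single control heart.

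**Figure D1:**
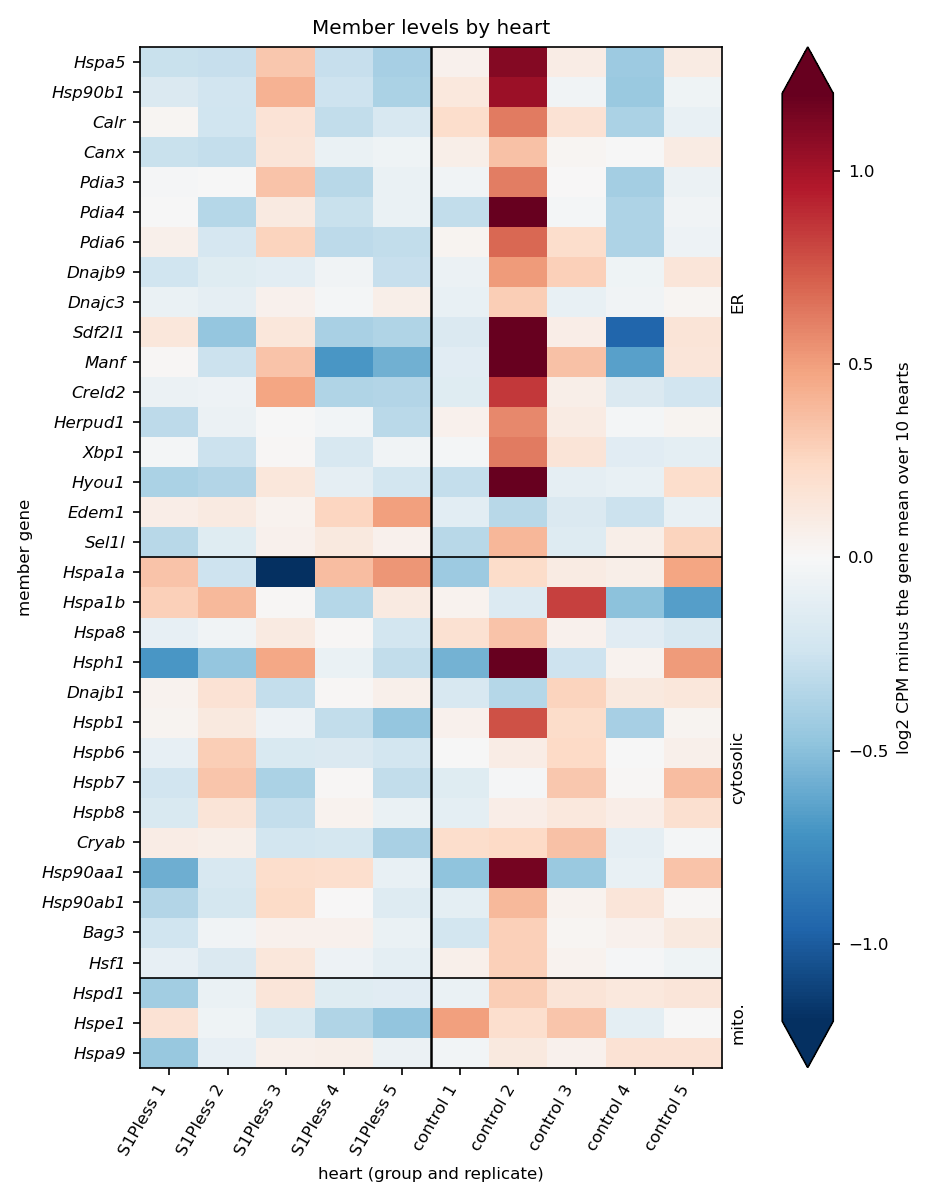
Level of each of the 34 members (rows, grouped as ER, cytosolic and mitochondrial) in each of the 10 hearts (columns, S1Pless then control), as log2 CPM minus the gene's mean over the 10 hearts. Control replicate 2 is the column with the highest level in 24 of the 34 rows, and Edem1 is a row in which all 5 S1Pless hearts lie above all 5 controls.

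That heart, control replicate 2, stood apart from all others in these genes. It had the highest level of all 10 hearts in 24 of the 34 members, which was the case in 9.81% of all genes tested. By compartment it was highest in 16 of 17 ER genes, in 7 of 14 cytosolic genes and in 1 of 3 mitochondrial genes. Set against the median of the other 4 controls, its level was at least 1.5 times as high in 10 ER genes, in 3 cytosolic genes and in 0 mitochondrial genes, while 3.66% of all genes tested reached that ratio. It carried 18583942 counts, within the range of the other libraries. Its share of mitochondrially encoded transcripts was 23.7%, against 25.3% to 33.4% in controls 1, 3 and 5 and 24.8% in control 4. The plot of group differences gives every member without this heart as well, and the text does so for a part of them.

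S1Pless replicate 3 held the same place in its own group, with smaller differences. Among the 5 S1Pless hearts it was highest in 13 of 17 ER genes, in 5 of 14 cytosolic genes and in 1 of 3 mitochondrial genes. Over all genes tested it was the highest S1Pless heart in 18.3%. Its level was above the median of the other S1Pless hearts in 16 of the 17 ER genes, with a median ratio of 1.31, and the same ratio for control replicate 2 among controls was 1.62. The titles of these hearts carry adjacent numbers, whose meaning is not stated. Control replicate 1 and S1Pless replicate 2 also have adjacent numbers, and each was the highest of its group in 0 of 17 ER genes.

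Edem1 encodes a lectin-like protein that takes misfolded glycoproteins out of the folding cycle for degradation. It had 22.4, 22.8, 21.8, 25.2 and 29.7 CPM in S1Pless replicates 1 to 5, against 19.4, 16.8, 18.7, 17.6 and 19.9 CPM in control replicates 1 to 5. The groups did not overlap, which was seen in 6.35% of all genes tested and in 1 of the 34 members. The mean was 24.4 ± 3.3 CPM in S1Pless hearts and 18.5 ± 1.3 CPM in controls (SD, n = 5 each). Edem1 thus rose 1.32-fold, a log2 fold change of 0.40 ± 0.10 (SE) with a 95% interval of 0.19 to 0.61 and an edgeR adjusted p of 0.0388.

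The size of this difference held when hearts were left out, but the call did not. With each heart left out in turn the log2 fold change stayed between 0.31 and 0.44, and the adjusted p ran from 0.0369 to 0.105. The call held in 3 of 10 such fits, without control replicate 1 or S1Pless replicate 2 or 3. It was lost without S1Pless replicate 1, 4 or 5 (adjusted p = 0.0516, 0.0674 and 0.101) and without control replicate 2, 3, 4 or 5 (0.0818, 0.0836, 0.105 and 0.0648). Without S1Pless replicate 3 the log2 fold change was 0.44 (adjusted p = 0.0369), and without control replicate 2 it was 0.37 (adjusted p = 0.0818). The share of all genes called higher moved as well, at 2.06%, 3.78%, 3.28%, 3.51% and 1.69% without S1Pless replicate 1 to 5, and 3.85%, 1.99%, 0.903%, 0.931% and 1.7% without control replicate 1 to 5. The share called lower was 0.146%, 0.253%, 0.421%, 0.145% and 0.138% without S1Pless replicate 1 to 5, and 0.649%, 0.13%, 0.0612%, 0.0687% and 0.107% without control replicate 1 to 5. Edem1 was called with every other scale and filter tried, where the background was 3.2% higher and 0.377% lower with RLE factors, 3.61% and 0.269% with upper-quartile factors, 10.9% and 0.1% with library totals alone, 2.92% and 0.247% without a filter and 3.48% and 0.3% with a minimum of 1 CPM in 5 libraries. A covariate for the range of title numbers left it called (2.47% and 0.3%). It was called neither without both hearts (1.24% and 0.177%) nor with a block for neighbouring title numbers (0.616% and 0.0616%). Control replicate 2, the highest heart in every other ER gene, was the lowest heart in Edem1.

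**Figure D2:**
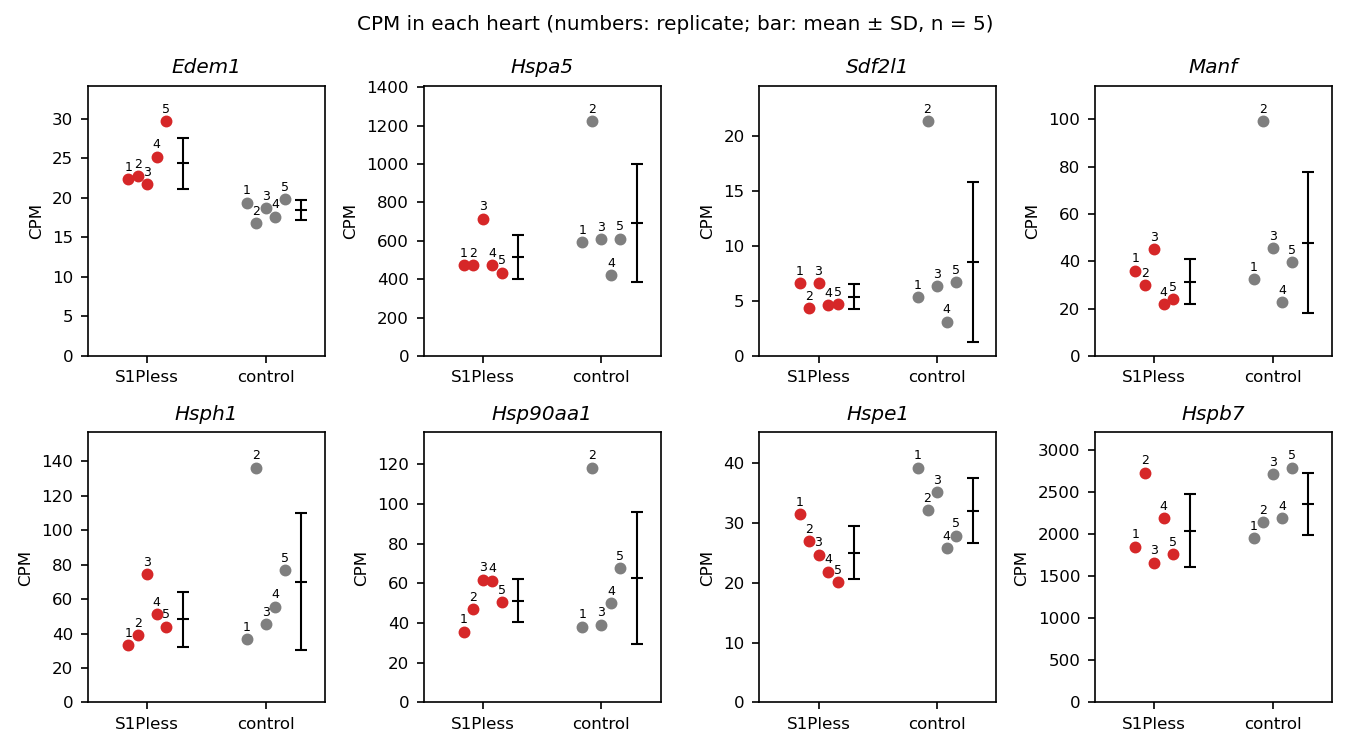
CPM in each heart for 8 members, S1Pless on the left and control on the right of each panel, with numbers giving the replicate and bars the mean ± SD (n = 5 each). In Edem1 the groups are apart, whereas in Hspa5, Sdf2l1, Manf, Hsph1 and Hsp90aa1 control replicate 2 lies above all other hearts.

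Among the ER chaperones, the level of control replicate 2 ran from 1.24 times the median of the other controls for Canx to 2.48 times for Hyou1. Hspa5 encodes BiP, the HSP70 of the ER and the main repressor of the sensors of unfolded protein. The S1Pless hearts had 434 to 716 CPM of Hspa5, with the top value in S1Pless replicate 3, against 1224 CPM in control replicate 2 and 422 to 611 CPM in the other controls. The group means were 514 ± 114 CPM in S1Pless hearts and 692 ± 308 CPM in controls, a log2 fold change of -0.43 ± 0.24 (95% interval -0.94 to 0.09). Without control replicate 2 the log2 fold change was -0.11, and without S1Pless replicate 3 it was -0.57. Neither fit nor the one with all hearts called it.

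Hsp90b1, which encodes the ER form of HSP90, GRP94, had the same order of S1Pless hearts. Among controls it had the same highest and lowest heart, but control replicates 1 and 5 changed places. The S1Pless hearts had 299 to 521 CPM, again with S1Pless replicate 3 at the top, against 791 CPM in control replicate 2 and 286 to 425 CPM in the other controls. Its log2 fold change was -0.30 ± 0.24 with all hearts and 0.0054 without control replicate 2. Hyou1, an exchange factor and chaperone that works with BiP, had 39.6, 40.3, 56.5, 47.7 and 44.2 CPM in S1Pless replicates 1 to 5, against 42.1, 119, 47.7, 48.2 and 59.4 CPM in control replicates 1 to 5. Control replicates 2 and 5 lay above every S1Pless heart and the other controls within the S1Pless range. The log2 fold change was -0.47 ± 0.25 (adjusted p = 0.316), and -0.11 without control replicate 2.

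Calr and Canx encode calreticulin and calnexin, the lectin chaperones that hold new glycoproteins. Canx had 279, 277, 372, 319 and 326 CPM in S1Pless replicates 1 to 5, against 353, 430, 343, 334 and 360 CPM in control replicates 1 to 5. S1Pless replicate 3 was the only S1Pless heart inside the control range, and the log2 fold change was -0.21 ± 0.11 (adjusted p = 0.314). Calr averaged 280 ± 39.3 CPM in S1Pless hearts and 332 ± 87.1 CPM in controls. Without control replicate 2 the log2 fold changes were -0.14 for Canx and -0.087 for Calr. The disulphide isomerases Pdia3, Pdia4 and Pdia6 had log2 fold changes of -0.062 ± 0.17, -0.38 ± 0.29 and -0.22 ± 0.17 with all hearts, and of 0.12, 0.074 and -0.038 without control replicate 2. Pdia4 had 29.6 to 40.4 CPM in S1Pless hearts, against 93.0 CPM in control replicate 2 and 29.0 to 36.8 CPM in the other controls.

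Sdf2l1, Manf and Creld2 encode smaller ER proteins. Sdf2l1 encodes a partner of ER-resident HSP40 proteins, and its level in control replicate 2 was 3.66 times the median of the other controls. It had 4.35 to 6.62 CPM in S1Pless hearts, against 21.3 CPM in control replicate 2 and 3.10 to 6.70 CPM in the other controls. Manf, a secreted ER protein that binds BiP, had 22.02 to 45.3 CPM in S1Pless hearts, against 99.3 CPM in control replicate 2 and 22.8 to 45.6 CPM in the other controls. Creld2, a stress-induced ER protein, had 12.4 to 22.1 CPM in S1Pless hearts, against 28.7 CPM in control replicate 2 and 13.6 to 16.8 CPM in the other controls. Their log2 fold changes were -0.68 ± 0.43, -0.61 ± 0.36 and -0.18 ± 0.21 with all hearts, and 0.0062, -0.15 and 0.077 without control replicate 2. Within the group of controls the coefficient of variation was 85.0% for Sdf2l1, 62.4% for Manf and 36.3% for Creld2. The same measure was 50.1% for Hyou1, 44.5% for Hspa5, 43.6% for Hsp90b1 and 10.4% for Canx, so Creld2 varied less than 3 of these chaperones.

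Dnajb9 and Dnajc3 encode ER co-chaperones of the HSP40 type, ERdj4 and p58IPK. Dnajb9 had 41.0, 43.8, 44.3, 46.8 and 40.0 CPM in S1Pless replicates 1 to 5, against 45.9, 69.0, 59.0, 46.7 and 53.6 CPM in control replicates 1 to 5. Only S1Pless replicate 4 lay inside the control range. Its log2 fold change was -0.35 ± 0.11 with a 95% interval of -0.58 to -0.11, and its edgeR adjusted p of 0.101 missed the threshold. DESeq2 gave an adjusted p of 0.0405, and edgeR without control replicate 1 gave 0.0488. Without control replicate 2 the log2 fold change was -0.24 (adjusted p = 0.201), and without S1Pless replicate 3 it was -0.35 (adjusted p = 0.146). Dnajc3 averaged 67.6 ± 3.7 CPM in S1Pless hearts and 69.7 ± 8.2 CPM in controls, and the 95% interval of its log2 fold change ran from -0.24 to 0.15.

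Herpud1 encodes a membrane protein of the ER degradation complex and is a known target of the stress response. It had 160, 189, 198, 194 and 159 CPM in S1Pless replicates 1 to 5, against 206, 296, 212, 195 and 203 CPM in control replicates 1 to 5. Only S1Pless replicate 3 lay within the control range. The log2 fold change was -0.31 ± 0.13 (edgeR adjusted p = 0.194), and it was -0.18 without control replicate 2. Sel1l, the adaptor of the ubiquitin ligase HRD1, averaged 81.6 ± 10.1 CPM in S1Pless hearts and 88.3 ± 17.9 CPM in controls. Xbp1, the transcription factor whose mRNA IRE1 splices, averaged 63.1 ± 5.1 CPM in S1Pless hearts and 73.6 ± 17.6 CPM in controls. Counts per gene do not separate its spliced from its unspliced form. Edem1 was therefore the only ER gene with a positive log2 fold change, and the median over the 17 was -0.24 with all hearts, -0.04 without control replicate 2 and -0.34 without S1Pless replicate 3.

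**Figure D3:**
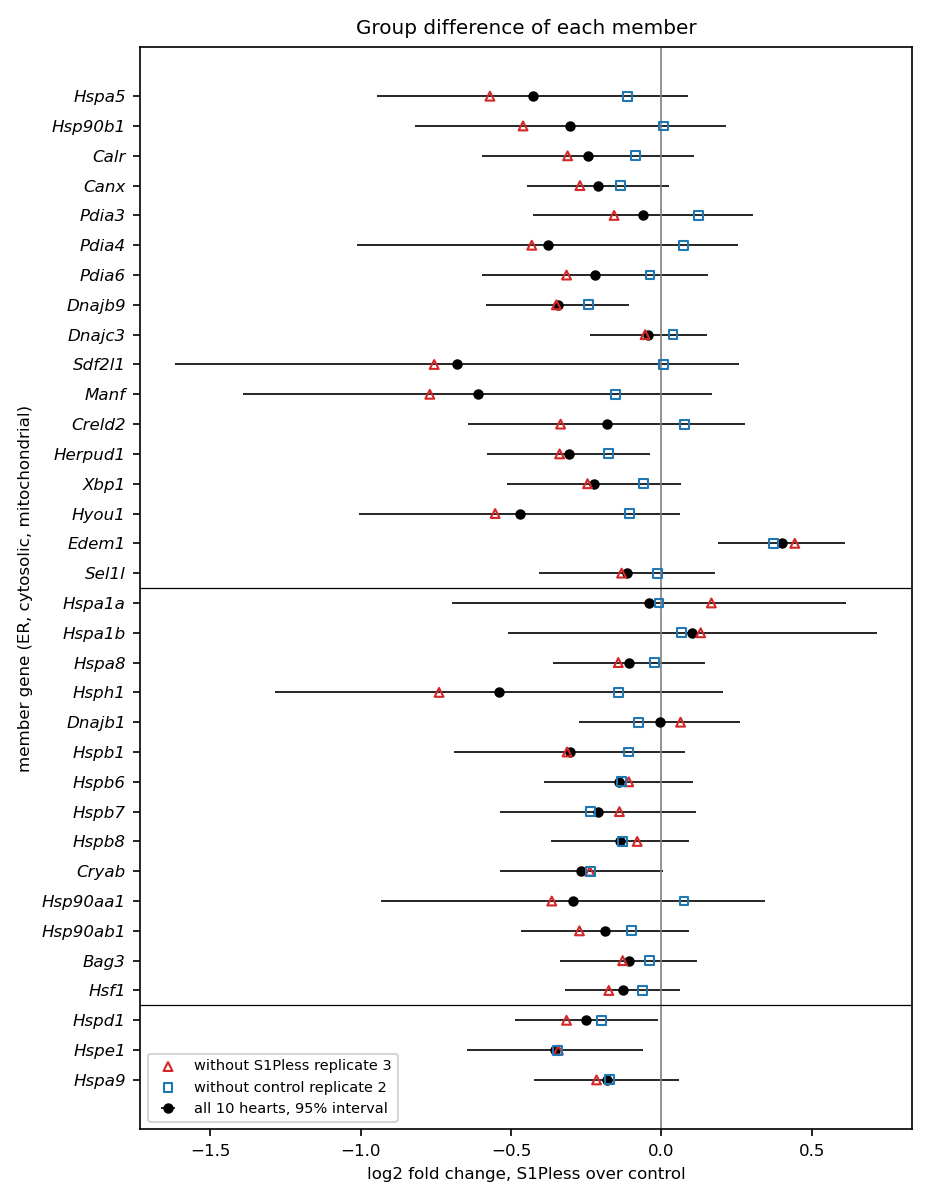
Log2 fold change of each member, S1Pless over control, on the horizontal axis, with black points and 95% intervals from all 10 hearts, red triangles without S1Pless replicate 3 and blue squares without control replicate 2. Most ER points move toward 0 when control replicate 2 is left out, and of the 34 intervals only those of Dnajb9, Herpud1, Edem1, Hspd1 and Hspe1 leave out 0.

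Some promoters of the ER genes hold a sequence known from the unfolded protein response. The members were listed as genes of that response or of the heat shock system. Finding known elements of these responses in them is therefore not an independent result. The ER stress element, searched as CCAAT and CCACG with 9 bases of any kind between them, is the site that ATF6 is known to bind together with the factor NF-Y. It was searched on both strands from 250 bases before to 50 bases after the start of each RefSeq gene (GRCm38.p6), a window held for 15 of the 17 ER genes and for 26 of all 34 members. It was found in 7 members, all of them among the 15 ER genes with a window, and in 0.119% of the 32851 promoters in the table. The heat shock element, searched as GAA, TTC and GAA with 2 bases of any kind between neighbours, was found in 3 members, Hspd1, Hspe1 and Hsph1, and in 0.603% of all promoters. The match of Hsph1 lay after its start, and Hspd1 and Hspe1 share the same matches. No window was held for Manf, Hyou1, Hspa8, Cryab, Hsp90aa1, Hsp90ab1, Hsf1 and Hspa9, so these members were not searched for any element. The UPR element TGACGTGG was found in 0 members and in 0.676% of all promoters. A match is a description of these letters and shows no binding. The 8 ER stress elements follow, 5′ to 3′, with the fixed letters in capitals and the spacer in lower case.
Hspa5, chr2:34772025-34772043, plus strand: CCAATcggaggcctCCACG
Hsp90b1, chr10:86705638-86705656, minus strand: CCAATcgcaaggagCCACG
Hsp90b1, chr10:86705533-86705551, plus strand: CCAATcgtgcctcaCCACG
Calr, chr8:84847075-84847093, plus strand: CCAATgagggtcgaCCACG
Canx, chr11:50325800-50325818, minus strand: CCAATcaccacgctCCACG
Pdia6, chr12:17266491-17266509, plus strand: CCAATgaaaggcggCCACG
Dnajc3, chr14:118937827-118937845, plus strand: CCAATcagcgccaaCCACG
Creld2, chr15:88819520-88819538, minus strand: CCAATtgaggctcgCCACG

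Among these 7 genes the level in control replicate 2 over the median of the other controls ran from 1.24 for Canx to 2.10 for Hsp90b1. Members with larger ratios, such as Sdf2l1 and Pdia4, had no exact match in this window. Hspa5 is shown in full because it is the best-known target of the element and the most abundant ER member. The 250 bases before its start, chr2:34771840-34772089 on the plus strand of GRCm38.p6, are given 5′ to 3′ with the exact ER stress element in capitals, which ends 47 bases before the start.
Hspa5 upstream: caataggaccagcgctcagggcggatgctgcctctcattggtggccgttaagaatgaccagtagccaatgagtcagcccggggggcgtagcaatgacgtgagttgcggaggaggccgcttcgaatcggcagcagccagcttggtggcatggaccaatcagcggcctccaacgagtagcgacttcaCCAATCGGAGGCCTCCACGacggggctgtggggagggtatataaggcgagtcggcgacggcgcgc

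In the cytosol, 0 of 14 genes passed in either direction with edgeR, DESeq2 or limma-voom, and 0 were below an unadjusted p of 0.05 in edgeR. The median log2 fold change was -0.14 with all hearts, -0.09 without control replicate 2 and -0.14 without S1Pless replicate 3. The constitutive chaperones were high. Hspa8, the constitutive HSP70, averaged 560 ± 46.4 CPM in S1Pless hearts and 604 ± 93.6 CPM in controls, and Hsp90ab1, the constitutive HSP90, 1067 ± 169 CPM in S1Pless hearts and 1216 ± 167 CPM in controls. The 95% intervals of their log2 fold changes ran from -0.36 to 0.14 and from -0.47 to 0.09.

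The inducible members of the heat shock system did not form a single pattern. Hsph1, an exchange factor of HSP70, and Hsp90aa1, the inducible HSP90, followed the ER chaperones. Hsph1 had 33.4 to 74.5 CPM in S1Pless hearts, with S1Pless replicate 3 at the top, against 136 CPM in control replicate 2 and 36.6 to 76.9 CPM in the other controls. Hsp90aa1 had 35.6 to 61.9 CPM in S1Pless hearts, against 118 CPM in control replicate 2 and 38.2 to 67.7 CPM in the other controls. Their log2 fold changes were -0.54 ± 0.34 and -0.29 ± 0.29 with all hearts, and -0.14 and 0.075 without control replicate 2.

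By contrast, Dnajb1, the HSP40 most used as a reporter of HSF1 activity, had 11.2 to 15.4 CPM in S1Pless hearts, against 10.8 CPM in control replicate 2 and 12.0 to 16.4 CPM in the other controls. Control replicate 2 was thus the lowest of all 10 hearts, and the log2 fold change was -0.01 ± 0.12. Hspa1a and Hspa1b, the classical stress-induced HSP70 genes, were close to the floor of detection. Hspa1a had 8 to 38 reads in S1Pless hearts and 14 to 31 in controls, or 1.30 ± 0.54 CPM and 1.35 ± 0.29 CPM. Hspa1b had 18 to 31 reads in S1Pless hearts and 13 to 38 in controls, or 1.24 ± 0.23 CPM and 1.154 ± 0.52 CPM. S1Pless replicate 3 had the lowest Hspa1a level of all hearts, 0.464 CPM from 8 reads. The longest reading frames of both transcripts, of 1926 and 1929 bases, were 99.4% identical, so the split of reads between these genes is uncertain.

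Hsf1, the transcription factor that drives heat shock genes, averaged 33.1 ± 2.8 CPM in S1Pless hearts and 36.2 ± 3.5 CPM in controls, with a 95% interval of -0.32 to 0.06 for its log2 fold change. Its mRNA level says nothing of its activity, which is set by the state of the protein. Bag3, a co-chaperone that links HSP70 to small heat shock proteins and to selective autophagy in muscle, averaged 243 ± 19.4 CPM in S1Pless hearts and 262 ± 32.7 CPM in controls (log2 fold change -0.11 ± 0.11).

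The small heat shock proteins typical of heart muscle differed from the ER genes in their order of hearts. Cryab encodes alpha-B crystallin, which binds desmin and titin. It had 1583, 1564, 1285, 1287 and 1136 CPM in S1Pless replicates 1 to 5, against 1732, 1758, 1905, 1384 and 1467 CPM in control replicates 1 to 5. The groups overlapped, and the log2 fold change was -0.27 ± 0.13 (95% interval -0.54 to 0.01, edgeR adjusted p = 0.261). Hspb7, a muscle-specific small heat shock protein that binds filamin, averaged 2041 ± 434 CPM in S1Pless hearts and 2362 ± 371 CPM in controls. Its highest levels were 2733 CPM in S1Pless replicate 2 and 2793 CPM in control replicate 5, while control replicate 2 had 2147 CPM.

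Hspb6, whose protein is HSP20, averaged 773 ± 124 CPM in S1Pless hearts and 853 ± 61.2 CPM in controls. Hspb8, the partner of BAG3, averaged 438 ± 53.7 CPM in S1Pless hearts and 482 ± 37.5 CPM in controls. S1Pless replicate 3 had the lowest Hspb7 and Hspb8 levels of all 10 hearts, at 1664 and 375 CPM. Hspb1, which encodes HSP27, was nearer to the ER genes, with 45.6 to 68.2 CPM in S1Pless hearts, against 107 CPM in control replicate 2 and 47.8 to 73.4 CPM in the other controls. The log2 fold changes of Hspb1, Hspb6, Hspb7 and Hspb8 were -0.30, -0.14, -0.21 and -0.14, and 0 of the 4 passed. Without control replicate 2 that of Hspb1 was -0.11.

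Most of these small heat shock proteins are known from heart muscle cells, and markers of that cell type stand beside them here. All 12 heart muscle markers had a negative log2 fold change, with a median of -0.19, and 0 of 12 were called by edgeR, 2 were below an unadjusted p of 0.05, 1 was called lower by DESeq2 and 0 by limma-voom. Their summed levels, given above, did not overlap between the groups on the TMM scale. The TMM factors themselves differed between the groups, and whether the sums stay apart with library totals alone was not tested. Sums of other genes were not compared. Of the macrophage markers, 8 of 12 were called higher, or 3 of 12 without control replicate 2, and their summed level was 350 to 793 CPM in S1Pless hearts and 214 to 281 CPM in controls. In RNA from heart tissue, fewer cells of a type and less RNA per cell cannot be told apart. The part of this shift in the negative values of the chaperone genes was not tested.

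**Figure D4:**
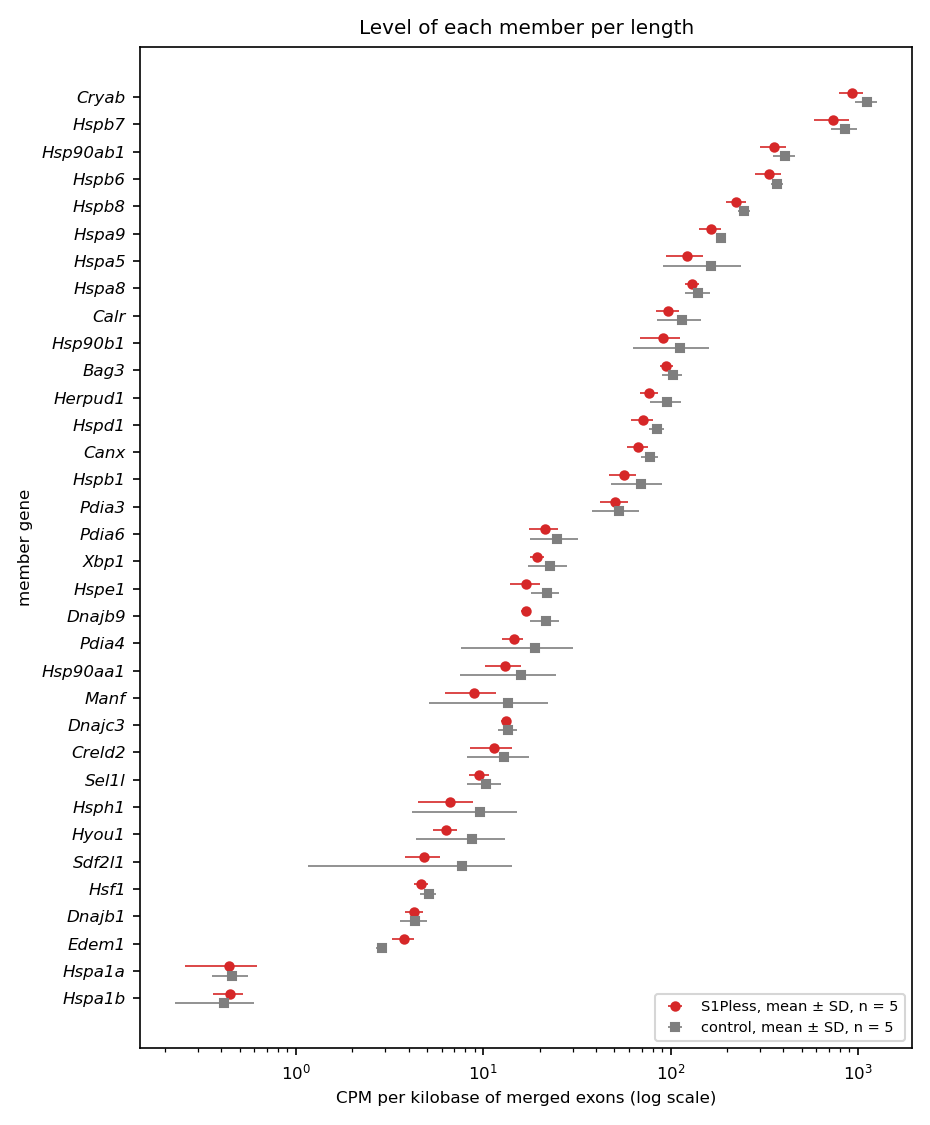
Level of each member per length, as mean CPM per kilobase of merged exons on a log axis, with SD over 5 hearts per group, S1Pless in red and control in grey. Cryab, Hspb7, Hsp90ab1, Hspb6 and Hspb8 are at the top, with 927 to 225 in S1Pless hearts, and Hspa1a and Hspa1b are at the bottom with under 1.

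Per length, the members spanned more than 3 orders of magnitude. Cryab was the most abundant, with 927 ± 132 CPM per kilobase of merged exons in S1Pless hearts and 1115 ± 146 in controls. Hspb7 followed with 737 ± 157 in S1Pless hearts and 853 ± 134 in controls, and these neighbours differed by less than the sum of their SDs in either group. Next came Hsp90ab1, with 356 ± 56.5 in S1Pless hearts and 405 ± 55.6 in controls, and Hspb6, with 336 ± 53.8 in S1Pless hearts and 371 ± 26.6 in controls. The ER gene with the highest level was Hspa5, with 122 ± 26.9 in S1Pless hearts and 164 ± 72.8 in controls. Edem1 was the lowest ER gene, with 3.78 ± 0.51 in S1Pless hearts and 2.87 ± 0.20 in controls, so the only called member was among the least abundant. Hspa1a had 0.439 ± 0.18 in S1Pless hearts and 0.454 ± 0.099 in controls.

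On the TMM scale, the mitochondrial chaperones were the compartment in which the summary levels of the groups lay apart. The groups nevertheless overlapped in each of the 3 genes. Averaged over the 3 genes, log2 CPM was 7.11 to 7.35 in S1Pless hearts and 7.40 to 7.54 in controls. Of all single genes tested, 6.35% had groups that did not overlap, and averages of other genes were not compared. The TMM factors themselves differed between the groups, and whether these averages stay apart with library totals alone was not tested. Hspd1, which encodes HSP60, had 152, 192.6, 224, 184 and 185 CPM in S1Pless replicates 1 to 5, against 192.9, 249, 226, 222 and 225 CPM in control replicates 1 to 5. S1Pless replicate 3 lay inside the control range and the other S1Pless hearts below it, and the log2 fold change was -0.25 ± 0.11 (edgeR adjusted p = 0.230). Hspe1, which encodes the HSP10 lid of the same folding chamber, had 31.6, 27.02, 24.7, 21.9 and 20.1 CPM in S1Pless replicates 1 to 5, against 39.3, 32.1, 35.2, 25.8 and 27.9 CPM in control replicates 1 to 5. Its groups overlapped, with a log2 fold change of -0.35 ± 0.14 (edgeR adjusted p = 0.170).

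Hspa9, the mitochondrial HSP70 that pulls proteins through the import channel, averaged 705 ± 96.9 CPM in S1Pless hearts and 800 ± 49.0 CPM in controls (log2 fold change -0.18 ± 0.11). With edgeR, DESeq2 and limma-voom 0 of the 3 passed, and 2 of 3 were below an unadjusted p of 0.05 in edgeR. The median log2 fold change was -0.25 with all hearts, -0.20 without control replicate 2, -0.32 without S1Pless replicate 3 and -0.12 with library totals alone. The negative heart muscle markers stand beside these genes too, and their part was not tested.

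Hspd1 and Hspe1 lie head to head on chromosome 1, with 215 bases between their RefSeq starts. That stretch, chr1:55087933-55088147 on the plus strand of GRCm38.p6, is shown because both genes share it. It is read 5′ to 3′ from the start of Hspd1 toward that of Hspe1, with 2 overlapping exact heat shock elements in capitals.
Hspd1-Hspe1: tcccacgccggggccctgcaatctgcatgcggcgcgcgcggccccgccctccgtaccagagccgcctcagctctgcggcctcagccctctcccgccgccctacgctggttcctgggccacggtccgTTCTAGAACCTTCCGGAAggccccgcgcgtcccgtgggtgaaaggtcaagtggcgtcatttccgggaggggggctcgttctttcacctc

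In spite of the shared stretch, the hearts did not rank alike in both genes. S1Pless replicate 1 had the lowest Hspd1 level of all hearts and the highest Hspe1 level among S1Pless hearts, and control replicate 1 had the lowest Hspd1 level among controls and the highest Hspe1 level of all 10 hearts. Reads of nearly identical pseudogene copies, which Hspe1 and Hspd1 have, could move between loci in a way the deposited counts do not show.

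Other genes of these pathways gave few differences. Among 23 tested genes of the sensors and signalling branches of the unfolded protein response, 0 were called by edgeR, DESeq2 or limma-voom, 4 higher and 0 lower genes were below an unadjusted p of 0.05, and the median log2 fold change was 0.06. Over all genes tested, 13% were higher and 6.82% lower at that p in edgeR. The smallest p-values belonged to Nupr1, a stress-induced chromatin protein, with 4.51 ± 0.80 CPM in S1Pless hearts and 2.98 ± 0.74 CPM in controls (edgeR adjusted p = 0.117), and to Bbc3, which encodes the pro-apoptotic PUMA (adjusted p = 0.132). In control replicate 2, 3 of these 23 genes, Chac1, Wfs1 and Creb3l2, had their highest level of all hearts, against 9.81% of all genes tested. Chac1 was at 5.21 CPM there and at 1.54 to 3.32 CPM in the other controls. Atf4 and Ddit3, the effectors of the PERK branch, were at 54.1 and 13.7 CPM in that heart, within the 53.5 to 75.3 and 9.75 to 21.8 CPM of the other controls. Chac1, Atf4 and Ddit3 were picked after their values were seen, and the activity of the PERK branch was not tested.

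Of 37 tested further genes of ER folding and degradation, edgeR and limma-voom called 0, DESeq2 called 1 lower, and 3 lower and 0 higher genes were below an unadjusted p of 0.05 in edgeR. Derl1, a channel of ER degradation, had 46.4 ± 2.0 CPM in S1Pless hearts and 53.5 ± 3.2 CPM in controls (edgeR adjusted p = 0.138). Syvn1, which encodes the ligase HRD1, had 24.02 ± 1.8 CPM in S1Pless hearts and 29.7 ± 5.2 CPM in controls (adjusted p = 0.148), with 37.5 CPM in control replicate 2. That heart had the highest level of all hearts in 7 of the 37, against 9.81% of all genes tested.

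The further cytosolic chaperones and co-chaperones gave 40 negative log2 fold changes among 46 tested genes, with a median of -0.14. Over all genes tested, 52.6% were negative. Again edgeR and limma-voom called 0 and DESeq2 called 1 lower, and 7 lower genes and 1 higher were below an unadjusted p of 0.05 in edgeR. The shares of all genes at that p were 6.82% lower and 13% higher. Fkbp4, an HSP90 co-chaperone of steroid receptors, had 294 ± 17.5 CPM in S1Pless hearts and 358 ± 22.5 CPM in controls, with no overlap of the groups and an edgeR adjusted p of 0.0959. Hspa12a, a distant HSP70 relative, had 35.6 ± 3.1 CPM in S1Pless hearts and 41.7 ± 2.3 CPM in controls (adjusted p = 0.144). Control replicate 2 was the highest heart in 13 of the 46, against 9.81% of all genes tested. Of 19 further mitochondrial chaperones and proteases, 17 had a negative log2 fold change with a median of -0.13. In that list edgeR, DESeq2 and limma-voom called 0, and 0 were below an unadjusted p of 0.05. Clpx and Phb had the smallest p-values, with edgeR adjusted p-values of 0.274 and 0.344.

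Genes that follow body temperature, the daily clock or handling of the tissue were measured beside the chaperones, since several heat shock genes are known to vary with them. Of 16 tested temperature and clock genes, 0 were called by edgeR, DESeq2 or limma-voom and 1 higher gene was below an unadjusted p of 0.05. Their summed level was 727 to 963 CPM in S1Pless hearts and 672 to 894 CPM in controls, with the lowest sum in control replicate 2. In that heart Arntl, which encodes the clock factor BMAL1, was at 19.5 CPM and Dbp, a clock output gene, at 47.8 CPM. Control replicate 4 had like values of these genes, 21.5 CPM of Arntl and 44.8 CPM of Dbp. Cry1 and Nr1d1 were near each other too, at 11.4 and 85.3 CPM in control replicate 2 and 10.9 and 80.9 CPM in control replicate 4. Per1 was not alike, at 32.8 CPM in control replicate 2 and 67.8 CPM in control replicate 4. Hlf, Tef and Nr1d2 were also lower in control replicate 2, at 18.9, 144 and 111 CPM, against 28.3, 173 and 138 CPM in control replicate 4. The 2 hearts were thus alike in only a part of the clock genes. All of these named clock genes were picked after their values were seen, and the part of the clock in the ER genes was not tested. Of 16 immediate early genes 0 were called by any of the 3 tools and 1 lower gene was below an unadjusted p of 0.05, and their sum in control replicate 2, at 417 CPM, was at the low end of the 409 to 854 CPM of controls.

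Control replicate 2 was seldom the highest heart in the cell type markers. It was the highest of all 10 hearts in 1 of 12 heart muscle markers and in 0 of 10 endothelial, 0 of 10 fibroblast, 0 of 12 macrophage and 0 of 9 smooth muscle and pericyte markers. The share over all genes tested was 9.81%. Log2 fold changes were positive in 12 macrophage, 9 fibroblast and 8 endothelial markers, which left a control heart little room to be highest there. Among the 5 controls alone it was highest in 2 heart muscle, 1 endothelial and 0 of the fibroblast, macrophage and smooth muscle and pericyte markers, against 19.1% of all genes tested. The 5 tested (of 10 listed) markers of antibody-secreting and B cells summed to 20.5 to 35.9 CPM in S1Pless hearts and 17.5 to 21.4 CPM in controls, with the lowest sum in control replicate 2. The part of any cell type in the levels of that heart was not tested. Endothelial markers summed to 1315 to 1577 CPM in S1Pless hearts and 1245 to 1410 CPM in controls. The lowest sum of all 10 hearts was that of control replicate 2. Of these markers 1 of 10, Erg, which encodes an endothelial transcription factor, was called higher. Without control replicate 2, 0 were called, and DESeq2 and limma-voom with all hearts called 2 each. Fibroblast markers summed to 2418 to 3088 CPM in S1Pless hearts and 1924 to 2599 CPM in controls, and 0 of 10 were called by edgeR or limma-voom, with 3 called higher by DESeq2 and 3 higher at an unadjusted p below 0.05. Smooth muscle and pericyte markers summed to 1621 to 1867 CPM in S1Pless hearts and 1644 to 1879 CPM in controls. Of those 9, 0 were called by any of the 3 tools, and 1 higher and 1 lower were below an unadjusted p of 0.05.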

How the data were processed

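The authors deposited raw read counts per Ensembl gene, with 1 column per heart. Per the submitters' processing notes, STAR 2.7.8a and featureCounts 2.0.1 were used with the build GRCm39. No source used here states the annotation release, the strand setting or the treatment of reads with several matches. Per the labels' protocols, the mRNA library kit was stranded. Identifiers were matched to symbols with GENCODE M21 (20 of 15341 without a symbol), whose merged exons gave gene lengths. The labels list the hearts as separate samples and pair no animals, and replicates were numbered in accession order.

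The main comparison was edgeR's quasi-likelihood test (version 4.0.16, R 4.3.3), two-sided, with robust dispersion and TMM factors. Genes had to pass filterByExpr at a minimum count of 10, which left 12992, and p-values were adjusted by Benjamini-Hochberg over these with a threshold of 0.05. The test was first tried on simulated counts. Standard errors are the log2 fold change over the square root of F, and 95% intervals use the degrees of freedom of that test. Alternatives were RLE and upper-quartile factors, library totals, 2 other filters, DESeq2 1.42.0, limma-voom (limma 3.58.1), a covariate for the series of the title number, and leaving out each heart. The members and lists were chosen with earlier results of these data known. Values per heart are given for the called member and for the 8 members with the smallest p-values, and in other lists without a call the 2 genes with the smallest p-values are named. P-values set the group difference against the spread between these hearts. Precision at low levels is set by depth, with 1 count worth 0.0451 to 0.0658 CPM.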

Additional observations from a re-analysis of the deposited data

Results flagged for a closer look

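In groups of 5 hearts, a value was singled out when the gap between the highest or lowest heart and its neighbour was a larger part of the group's range than Dixon's 95% critical value for 5 samples. Chance alone singles out about 1 in 20 groups, and 34 genes were looked at in each group. Control replicate 2 was singled out as the highest control in 9 of 34 genes, all of the ER: Hspa5 at 1224 CPM, Hsp90b1 at 791 CPM, Canx at 430 CPM, Pdia4 at 93.0 CPM, Dnajc3 at 83.8 CPM, Sdf2l1 at 21.3 CPM, Creld2 at 28.7 CPM, Herpud1 at 296 CPM and Hyou1 at 119 CPM. The same happened in 0.6% of all 12992 genes tested. S1Pless replicate 3 was singled out as the highest S1Pless heart in Hspa5, at 716 CPM against 434 to 474 CPM in the others, and in Hsp90b1, at 521 CPM against 299 to 346 CPM. S1Pless replicate 2 was singled out in Hspb6, at 991 CPM against 692 to 752 CPM in the other S1Pless hearts.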

How the results depend on the processing

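No paired analysis was possible because the labels give no replicate numbers that the groups share. The block for title numbers, below, joins hearts by nearness of number and is not a pairing that the labels state. Control replicates 3 and 4 had a block without any S1Pless heart, so the block fit compared the groups through the other hearts. Over all genes, 442 were called higher and 41 lower. Library totals alone gave 1420 and 13, DESeq2 753 and 266, and leaving out each heart gave 118 to 504 and 8 to 85. Added after seeing the data, leaving out both control replicate 2 and S1Pless replicate 3 gave 161 and 23, and a block for neighbouring title numbers gave 80 and 8. In both added fits the ER genes had 0 calls higher instead of 1. Leaving out each heart gave 0 to 1 ER genes higher and 0 to 1 lower, and DESeq2 gave 1 lower, Dnajb9. The mitochondrial median log2 fold change moved to -0.12 with library totals alone. In the cytosolic and mitochondrial genes, all 20 alternatives called 0 higher and 0 lower. Edem1 had a positive log2 fold change in all 20. Some uncalled members changed sign. With library totals alone the log2 fold changes became 0.069 for Pdia3, 0.088 for Dnajc3, 0.012 for Sel1l, 0.092 for Hspa1a, 0.026 for Hspa8, 0.13 for Dnajb1, 0.019 for Bag3 and 0.0058 for Hsf1. Dnajb1 became 0.0029 with upper-quartile factors and 0.081 with the block, and Pdia3 0.0013 in limma-voom. Without both hearts Pdia3, Pdia4, Dnajc3 and Hspa1a became 0.021, 0.015, 0.021 and 0.19. With each heart left out, log2 fold changes ran from -0.46 to 0.0054 for Hsp90b1, -0.16 to 0.12 for Pdia3, -0.50 to 0.074 for Pdia4, -0.086 to 0.038 for Dnajc3, -0.89 to 0.0062 for Sdf2l1, -0.34 to 0.077 for Creld2, -0.19 to 0.17 for Hspa1a, -0.026 to 0.41 for Hspa1b, -0.077 to 0.064 for Dnajb1 and -0.44 to 0.075 for Hsp90aa1. The cause of these changes was not tested.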
